A study of Mus musculus with 16 samples.

Results

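The heat shock proteins and their J-domain cochaperones were taken as the rows of the count table whose symbol starts with Hspa, Hspb, Hspd, Hspe, Hsph or Dnaja, Dnajb, Dnajc followed by a number, plus Hsp90aa1, Hsp90ab1 and Hsp90b1. The rule found 72 of 52997 gene symbols. There were 28 DNAJC genes, 13 DNAJB genes, 13 HSPA genes, 8 HSPB genes, 4 DNAJA genes, 3 HSP90 genes and 3 genes of the HSPD, HSPE and HSPH families. The rule used names alone and no measured value, and 50 of the 72 genes were placed in lists by the role and place of their protein. The study sequenced RNA from 16 libraries of C57BL/6 background (B6) mice aged 6 to 8 weeks, in 7 groups. Tg mice carried mTreg24, a T cell receptor (TCR) transgene taken from a muscle regulatory T cell (Treg), and WT mice were their transgene-negative counterparts. All Treg donors carried a Foxp3-GFP reporter, which labels Tregs, and Ctx was injected to injure muscle (in this field the abbreviation is used for cardiotoxin). On day 3 after injury Tregs were sorted from muscle of WT mice, muscle of Tg mice, spleen of WT mice and spleen of injured Tg mice, and the fifth Treg group came from spleen of uninjured Tg mice (2 libraries per group). Whole muscle was taken 8 days after injury from WT and Tg mice, whose labels name no reporter (3 libraries per group). Tg Tregs were gated on Vβ8, a TCR beta chain family, whereas WT Tregs were total Tregs, so a Tg against WT difference in sorted cells holds both the transgene and the gate. That the WT spleen donors were injured is stated in the series' design text and not in their labels.

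Heat shock proteins are molecular chaperones: they bind unfolded proteins and help them fold, move between compartments or be degraded. HSP70 proteins (HSPA genes) work in an ATP-driven cycle that J-domain proteins (DNAJ genes) start and nucleotide exchange factors reset, while HSP90 and its cochaperones act later on kinases and receptors, and small heat shock proteins (HSPB genes) hold unfolded proteins without ATP. Some members are made at all times, others are induced by heat, oxidants or other protein damage through heat shock factor 1 (HSF1), and each compartment, such as the endoplasmic reticulum (ER) and the mitochondrion, has its own set. In striated muscle several small heat shock proteins are abundant and protect the contractile apparatus.

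The 10 Treg libraries held 1986700 to 9116800 counts each, and the 6 whole muscle libraries held 5095999 to 7075420. Foxp3, the transcription factor that defines Tregs, was at 1109 to 2125 CPM (counts per 1000000 counts of the library) in Treg libraries and at 0 to 1.54 CPM in whole muscle. The 8 muscle fibre markers summed to 7.33 to 17.6 CPM in Treg libraries and to 159960 to 174890 CPM in whole muscle. The 72 genes together took 0.642% to 0.878% of the counts of a Treg library and 0.722% to 0.864% of those of a whole muscle library. Of them 3, Dnajc5b, Hspb2 and Hspb3, had 0 counts in all 10 Treg libraries. The sources used here do not say whether libraries of a group came from separate animals, so p-values measure no more than how far these samples spread, and that spread may be technical.

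Whole muscle and sorted Tregs had different leading chaperones, whereas the Tregs of both tissues shared theirs. Per kilobase of exon, the highest mean levels in WT muscle Tregs were those of the constitutive cytosolic chaperones Hsp90ab1 (553 CPM per kb) and Hspa8 (347 CPM per kb), followed by the ER HSP70 gene Hspa5 (162 CPM per kb). WT spleen Tregs had the same 3 genes in the same order, at 430, 203 and 109 CPM per kb. WT whole muscle was led by 2 small heat shock genes, Hspb6 (709 CPM per kb) and Hspb8 (547 CPM per kb), ahead of Hsp90ab1 (433 CPM per kb). Of the 70 members with at least 10 counts over all libraries, 25 (35.7%) were higher in every Treg library than in any whole muscle library, where 27.9% of all genes were, and 19 (27.1%) were lower in every Treg library, where 13.8% of all genes were. The 25 included Hspa8, Hspa5, Hsp90aa1, Dnajb1, Dnaja1 and Dnajc3. The 19 included 6 small heat shock genes, the mitochondrial chaperones Hspa9 and Dnaja3, and the J-domain genes Dnajb2, Dnajb4 and Dnajb5. These counts describe libraries that differ in cells, RNA input and day, and no test was made between sorted cells and tissue.

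Muscle Tregs had more transcript of 6 of the 8 stress-inducible genes than spleen Tregs, in WT and in Tg mice. Among 60 members tested in Tregs, 14 (23.3%) were higher in WT muscle than in WT spleen Tregs at an adjusted p under 0.05 (edgeR's quasi-likelihood test with Benjamini-Hochberg adjustment), where 9.38% of all tested genes were. 1 member (1.67%) was lower, where 6.87% of all genes were. In Tg mice 11 (18.3%) were higher in muscle than in injured spleen, where 4.83% of all genes were, and 1 (1.67%) was lower, where 2.55% of all genes were. In either direction 16.2% of all genes were called in WT and 7.38% in Tg. The 12 members called in Tg mice were 80% of the 15 called in WT and 100% of their own number, each with the same sign. The share of common calls over all genes was not computed, so this overlap has no background to be set against. The 2 comparisons share no library, but both came from 1 fit with a shared estimate of the spread. The median log2 difference of the 60 members was 0.20 in WT, against -0.04 over all genes, and 0.09 in Tg, against -0.04. Among the 60, 4 genes, Hspa1a, Hspa1b, Hspb1 and Hspa12a, passed the filter on low counts only through muscle libraries, and 3 only through spleen libraries; among the other 53, 12 were higher in WT and 9 in Tg. In Tg mice 7 members remained called without muscle library 1 and 7 without injured spleen library 1; both dropped Dnaja1, Dnajb9, Dnajc3 and Hsp90ab1, the first also Hspa2 and the second also Dnajb1. In WT 10 remained without spleen library 2, which dropped Dnaja1, Dnajc1, Hsp90ab1, Hsp90b1 and Hsph1. Scaled by library total instead of by TMM (trimmed mean of M values), the median of all genes shifted by -0.191 in WT and -0.198 in Tg, and the split of higher to lower calls became 12 to 3 and 10 to 3.

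**Figure D1:**
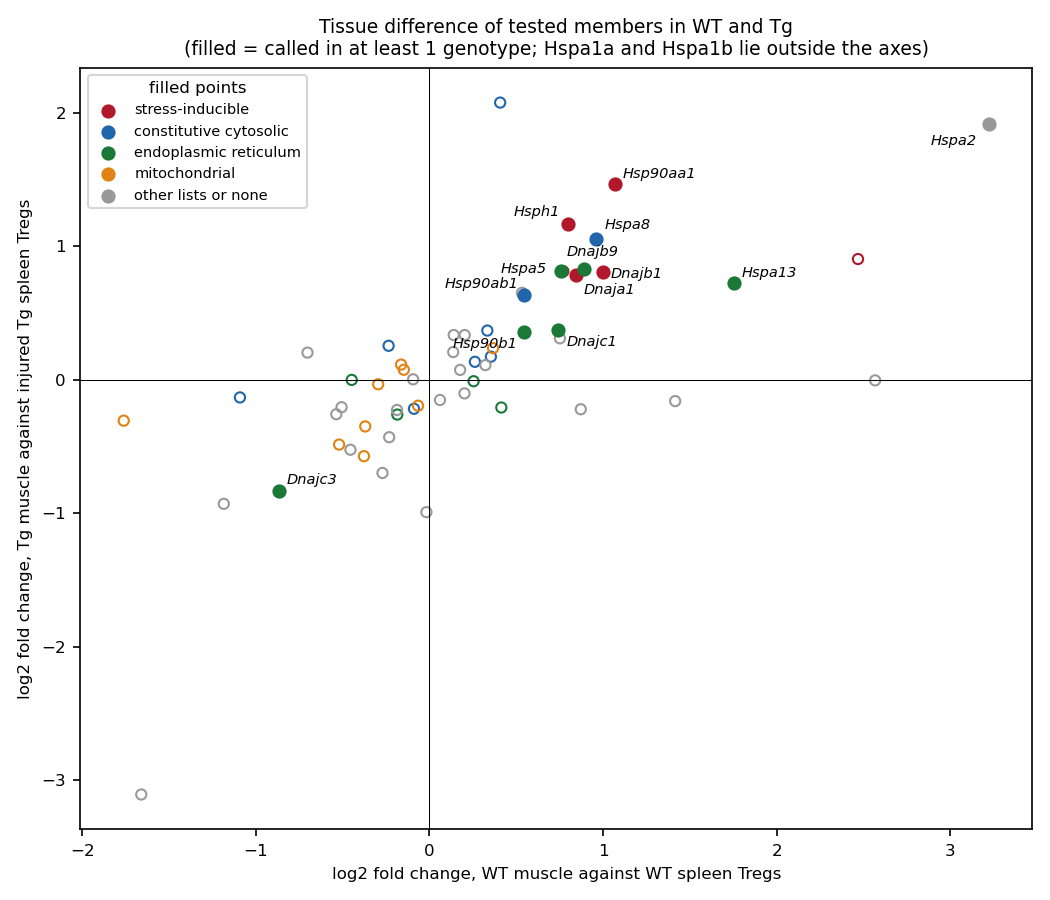
Log2 difference between muscle and spleen Tregs for the members tested, WT on the x axis and Tg on the y axis, with 1 point per gene coloured by role list. Filled, named points were called in at least 1 genotype: 12 of the 15 lie in the upper right quadrant inside the axes, Dnajc3 lies in the lower left, and Hspa1a and Hspa1b lie beyond the range shown.

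The inducible HSP70 genes Hspa1a and Hspa1b differed most. Muscle Treg libraries held Hspa1a at 69.2 and 128 CPM (WT) and at 155 and 172 CPM (Tg). In spleen no WT library had a count of it, and it was at 0 and 1.18 CPM in injured Tg spleen, and 0.694 and 1.08 CPM in uninjured Tg spleen. Every muscle Treg library was thus far above every spleen Treg library. Over the WT libraries this was 1487 counts against 0, at least 90.6-fold higher when 3 counts per spleen library are taken as the most that 0 allows (edgeR adjusted p = 3.74e-05). In Tg mice it was 1209 counts against 5, a ratio of 277 (95% counting interval 118 to 854; edgeR adjusted p = 2.77e-05). Hspa1b, its neighbour on chromosome 17, had the same pattern at a lower level. It was at 15.6 and 16.2 CPM in the WT and 28.3 and 25.2 CPM in the Tg libraries of muscle Tregs, and at 0 to 0.809 CPM in the 6 spleen libraries. It was at least 14.6-fold higher in WT muscle than in WT spleen Tregs (edgeR adjusted p = 0.000202), and 194 counts stood against 2 in Tg (ratio 111, 95% counting interval 30.3 to 924; edgeR adjusted p = 0.000154). The 2 genes share most of their sequence: 65.5% of the 25-base windows of Hspa1a exons also occur in Hspa1b, so the split of reads between them is uncertain. Their summed counts were also called in both genotypes (edgeR adjusted p = 0.000149 in WT and 0.000146 in Tg). Both genes passed the filter on low counts only through muscle libraries, so they were tested because of their level there. The sum uses the same counts and adds no separate support. Intervals and bounds here cover counting error only.

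HSF1 binds repeats of the unit GAA and its complement TTC, and the sequence before the start sites of several members is shown to let these letters be seen. The letters GAANNTTC or TTCNNGAA (each reads the same on both strands) were searched in the 250 bases before each RefSeq start site of build GRCm38.p6, and 58 members had such a window. They occurred in 14 of the 58 (24.14%) and in 14.55% of 27025 genes with a window. Of the 7 stress-inducible genes with a window 6 held them, and Dnajb1 did not. A longer form with 3 such units, alternating and 2 bases apart, contains the shorter letters and occurred in 3 of 58 members (Dnajb6, Hspd1 and Hspe1) and in 0.514% of genes. A gene with several start sites was counted if any of its windows held a match. Capitals mark the shorter letters. Hspa1a (chr17:34972157-34972406, minus strand) and Hspa1b (chr17:34959239-34959488, minus strand) differed at 3 of 250 bases, and in both the match starts 104 bases before the start site. Hspb1 (chr5:135887669-135887918, plus strand) holds 2 matches and is shown as an inducible member that did not pass in Tregs. After these come 2 stretches of 30 bases, from Hsph1 (chr5:149636351-149636380, minus strand) and from Hspe1 (chr1:55088053-55088082, plus strand), where 3 matches overlap. The Hspe1 stretch lies inside the annotated Hspd1 gene on the other strand, in the window of 1 of the 2 Hspd1 start sites.
Hspa1a: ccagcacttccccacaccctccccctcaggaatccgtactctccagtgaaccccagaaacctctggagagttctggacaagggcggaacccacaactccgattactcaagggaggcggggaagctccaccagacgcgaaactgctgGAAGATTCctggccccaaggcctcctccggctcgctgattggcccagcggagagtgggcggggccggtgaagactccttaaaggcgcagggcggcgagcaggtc
Hspa1b: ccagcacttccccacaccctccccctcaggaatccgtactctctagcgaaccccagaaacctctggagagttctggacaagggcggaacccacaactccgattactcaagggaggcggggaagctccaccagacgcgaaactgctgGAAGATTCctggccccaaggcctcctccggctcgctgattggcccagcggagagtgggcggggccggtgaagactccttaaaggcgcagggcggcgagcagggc
Hspb1: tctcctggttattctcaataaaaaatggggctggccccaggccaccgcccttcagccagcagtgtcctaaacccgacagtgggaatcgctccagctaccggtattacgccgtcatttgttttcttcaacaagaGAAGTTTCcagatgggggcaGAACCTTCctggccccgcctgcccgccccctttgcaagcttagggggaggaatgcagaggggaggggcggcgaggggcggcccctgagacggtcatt
Hsph1: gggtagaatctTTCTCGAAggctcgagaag
Hspe1: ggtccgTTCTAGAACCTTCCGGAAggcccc
A match describes letters in the window and was not tested as a binding site.

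A further 4 stress-inducible genes rose in muscle Tregs by smaller amounts. Hsp90aa1, the inducible cytosolic HSP90, was at 134 and 123 CPM in WT muscle Tregs against 79.5 and 60.9 CPM in WT spleen Tregs, and at 176 and 164 CPM in Tg muscle Tregs against 71.9 and 68.6 CPM in injured Tg spleen Tregs. No muscle library overlapped a spleen library of its genotype. The log2 difference was 1.07 ± 0.17 (SE; edgeR adjusted p = 0.000658) in WT and 1.47 ± 0.17 (edgeR adjusted p = 5.69e-05) in Tg. Hsph1, an HSP110 that resets HSP70, was at 120 and 141 CPM in WT muscle Tregs against 86.1 and 84.8 CPM in WT spleen, and at 156 and 182 CPM in Tg muscle Tregs against 79.3 and 93.6 CPM in injured Tg spleen. Its log2 difference was 0.80 ± 0.17 (edgeR adjusted p = 0.00623) in WT and 1.16 ± 0.17 (edgeR adjusted p = 0.00057) in Tg, with no overlap in either. The WT call was lost without muscle library 2 (0.63, edgeR adjusted p = 0.056) and without spleen library 2 (0.79, edgeR adjusted p = 0.0577). Dnajb1, the inducible J-domain partner of HSP70, was at 232 and 241 CPM in WT muscle Tregs against 143 and 127 CPM in WT spleen, and at 272 and 291 CPM against 157 and 211 CPM in Tg. The muscle libraries were the higher ones in both genotypes, by 1.00 ± 0.16 (edgeR adjusted p = 0.000724) and 0.81 ± 0.16 (edgeR adjusted p = 0.0051) on the log2 scale. Dnaja1, a farnesylated J-domain partner of HSP70, was at 324 and 362 CPM against 248 and 189 CPM in WT, and at 409 and 404 CPM against 228 and 312 CPM in Tg. It rose by 0.84 ± 0.17 (edgeR adjusted p = 0.00431) in WT and 0.79 ± 0.17 (edgeR adjusted p = 0.0106) in Tg. The WT call was lost without spleen library 2 (0.66, edgeR adjusted p = 0.073). The remaining 2 of the 8 genes did not pass. Dnajb4, a J-domain protein abundant in muscle, was at 13.6 and 24.9 CPM in WT muscle Tregs and 11.1 and 14.7 CPM in WT spleen (edgeR adjusted p = 0.211 in WT and 0.264 in Tg), and the small heat shock gene Hspb1 was at 0.432 to 2.48 CPM in muscle Tregs and 0 to 2.70 CPM in spleen Tregs. The median log2 difference of the 8 genes was 1.03 in WT, the same with Hspa1a and Hspa1b placed at their bounds. Hspa1a, Hspa1b and Hspb1 entered the test only through muscle libraries, and the other 5 genes had a median of 0.84 in WT and 0.81 in Tg. Much of the exon sequence of Hsp90aa1 (53.4% of 25-base windows) is shared with other genes, chiefly a processed copy. For Hspb1 the share is 57.2%, so the levels of both genes depend on how the authors' counting treated such reads.

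**Figure D2:**
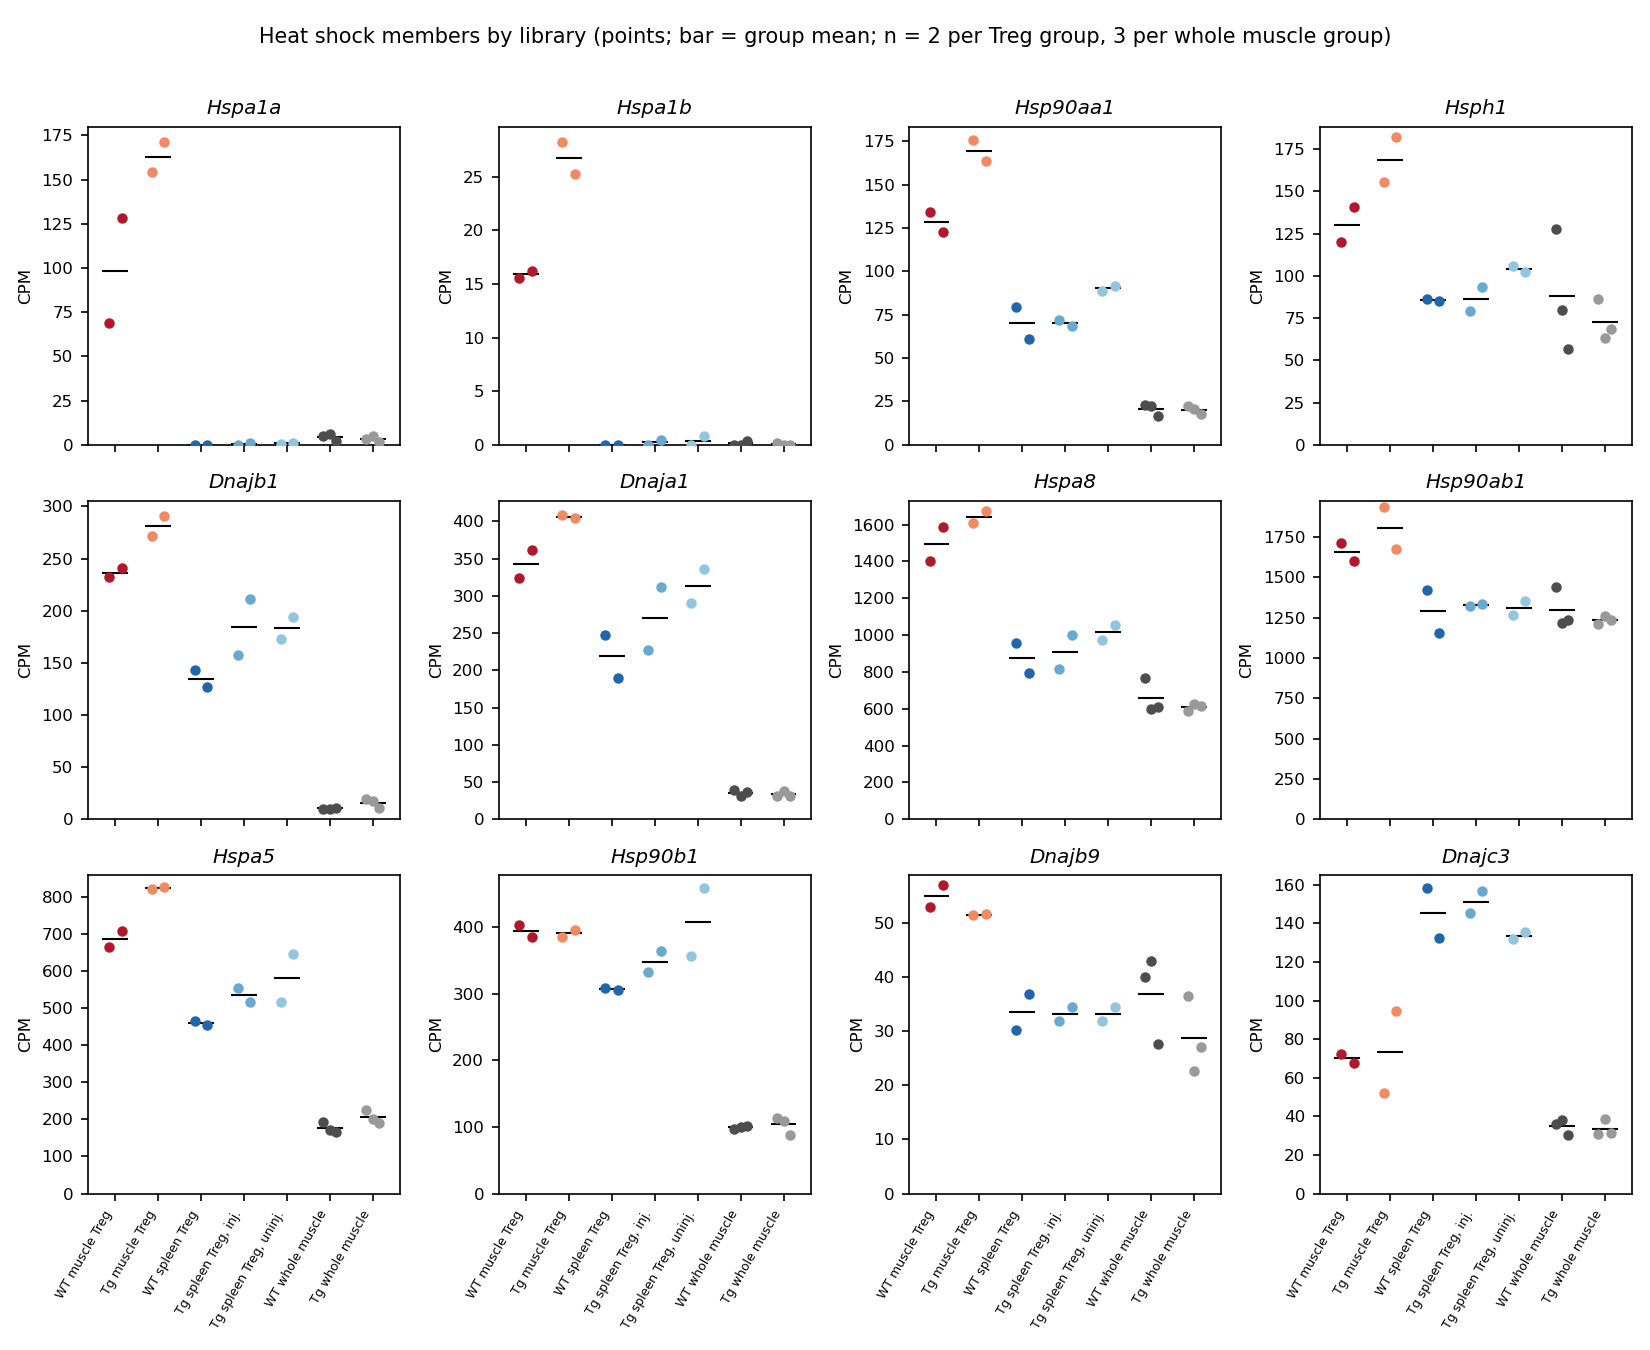
CPM of 12 members in each library, by group, with points for libraries and a bar for the group mean (2 libraries per Treg group, 3 per whole muscle group). All 4 muscle Treg libraries stand above all 6 spleen Treg libraries for Hspa1a, Hspa1b, Hsp90aa1, Hsph1, Dnajb1, Hspa8, Hsp90ab1, Hspa5 and Dnajb9, and below them for Dnajc3.

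Of the 9 constitutive cytosolic chaperones 2 rose with them. Hspa8, the constitutive HSP70 (HSC70), was at 1402 and 1585 CPM in WT muscle Tregs against 957 and 793 CPM in WT spleen Tregs, and at 1607 and 1674 CPM in Tg muscle Tregs against 814 and 1001 CPM in injured Tg spleen Tregs. All 4 muscle libraries lay above all spleen libraries, and the log2 difference was 0.96 ± 0.14 (edgeR adjusted p = 0.00037) in WT and 1.05 ± 0.14 (edgeR adjusted p = 0.000255) in Tg. Hsp90ab1, the constitutive cytosolic HSP90, was at 1712 and 1602 CPM against 1422 and 1155 CPM in WT, and at 1935 and 1676 CPM against 1323 and 1337 CPM in Tg. It was higher by 0.55 ± 0.13 (edgeR adjusted p = 0.00929) in WT and 0.64 ± 0.13 (edgeR adjusted p = 0.00533) in Tg. The WT call was lost when scaled by library total and when only the compared groups were fitted. The other 7 genes did not pass in either genotype, with log2 differences from -1.09 (Dnajb2) to 0.41 (Dnaja4) in WT and from -0.22 (Dnajc7) to 2.08 (Dnaja4) in Tg. The median of the 9 genes was 0.33 in WT and 0.26 in Tg. Among them Hspa4, an HSP110 that resets HSP70, was at 281 and 265 CPM in WT muscle Tregs against 257 and 259 CPM in WT spleen (edgeR adjusted p = 0.5). In Tg muscle Tregs Hspa4 was uneven, at 130 and 255 CPM, and overlapped injured spleen at 215 and 189 CPM (edgeR adjusted p = 0.819). As background to these levels, 46.8% of the 25-base windows of Hspa8 exons occur in other genes, mainly pseudogenes.

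In the ER, the HSP70 gene of the lumen and 1 of its J-domain partners rose in both genotypes while another partner fell. Hspa5 (BiP), the ER HSP70, was at 664 and 707 CPM in WT muscle Tregs against 465 and 455 CPM in WT spleen, and at 821 and 824 CPM in Tg muscle Tregs against 555 and 517 CPM in injured Tg spleen. Muscle was above spleen in every library, by 0.76 ± 0.13 (edgeR adjusted p = 0.00108) and 0.82 ± 0.13 (edgeR adjusted p = 0.000958) on the log2 scale. Dnajb9 (ERdj4), which brings misfolded clients to BiP, was at 53.0 and 57.0 CPM against 30.2 and 36.9 CPM in WT, and at 51.4 and 51.6 CPM against 31.9 and 34.5 CPM in Tg. It was higher by 0.89 ± 0.22 (edgeR adjusted p = 0.014) in WT and 0.83 ± 0.22 (edgeR adjusted p = 0.033) in Tg. The Tg call of Dnajb9 was lost when scaled by library total and with any single Tg muscle or injured Tg spleen library left out. Its WT call was lost without muscle library 2, without spleen library 1 and when only the compared groups were fitted. Dnajc3 (P58IPK), a BiP partner also known as an inhibitor of the kinase PERK, was the 1 member that fell. It was at 72.2 and 67.9 CPM in WT muscle Tregs against 159 and 132 CPM in WT spleen, and at 52.1 and 94.9 CPM against 145 and 157 CPM in Tg, without overlap. The log2 difference was -0.87 ± 0.22 (edgeR adjusted p = 0.0162) in WT and -0.83 ± 0.22 (edgeR adjusted p = 0.0345) in Tg. The WT call of Dnajc3 was lost without muscle library 2 and without spleen library 1. Its Tg call was lost without muscle library 1, without either injured spleen library, and when only the compared groups were fitted. A further 3 ER genes were called in WT. Hsp90b1 (GRP94), the ER HSP90, was at 404 and 385 CPM against 309 and 306 CPM (0.54 ± 0.13, edgeR adjusted p = 0.0131). That call was lost when scaled by library total and when only the compared groups were fitted. Hspa13, a microsomal HSP70-like protein, was at 38.1 and 44.3 CPM against 12.1 and 15.3 CPM (1.75 ± 0.30, edgeR adjusted p = 0.00104). Dnajc1, a membrane J-domain protein of the ER, was at 94.5 and 99.8 CPM against 72.5 and 60.4 CPM (0.74 ± 0.18, edgeR adjusted p = 0.0112). The call of Dnajc1 was lost without muscle library 2, without spleen library 2 and when only the compared groups were fitted. In Tg these 3 did not pass (edgeR adjusted p = 0.126 for Hsp90b1 and 0.149 for Hspa13), and the test of the difference between genotypes called none of them (edgeR adjusted p = 0.538 for Hspa13 and 0.788 for Dnajc1). Dnajb11 (ERdj3), a BiP partner, was uneven among muscle libraries: it was at 61.4 and 121 CPM in WT, 14.1 and 128 CPM in Tg, and 69.5 to 170 CPM in the 6 spleen libraries.

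None of the 9 mitochondrial members passed in either genotype, and their median log2 difference was -0.29 in WT and -0.19 in Tg. The chaperonin genes Hspd1 (HSP60) and Hspe1 (HSP10) were at 94.9 to 118 CPM and 36.7 to 44.5 CPM in the 4 muscle Treg libraries, and at 87.7 to 115 CPM and 41.2 to 60.9 CPM in the 6 spleen Treg libraries. Both genes therefore overlapped between the tissues. Other genes hold 57% of the 25-base windows of Hspd1 and 33.4% of those of Hspe1, so these levels depend on how such reads were counted. Hspa9 (mortalin), the mitochondrial HSP70, was at 103 to 144 CPM in muscle and 123 to 188 CPM in spleen Tregs. Its J-domain partner Dnaja3 was at 32.8 to 52.1 CPM in muscle Tregs, below all spleen libraries at 54.8 to 83.1 CPM, but did not pass (-0.52 ± 0.19, edgeR adjusted p = 0.0803 in WT; -0.48 ± 0.20, edgeR adjusted p = 0.17 in Tg). Scaled by library total, Dnaja3 was called lower in both genotypes. The 5 nuclear and ribosomal J-domain genes and the 3 endocytic ones had no call, for example Dnajc9, a histone chaperone (139 to 155 CPM in muscle, 119 to 169 CPM in spleen Tregs), and Dnajc5, a synaptic vesicle cochaperone also found in other cells (274 to 290 CPM and 274 to 298 CPM). Of 15 tested members outside the lists only Hspa2, an HSP70 best known from spermatocytes, passed. It was at 21.6 and 16.1 CPM in WT muscle Tregs against 3.02 and 1.78 CPM in WT spleen (247 against 14 counts; 3.22 ± 0.52, edgeR adjusted p = 0.000662). In Tg mice it was at 23.1 and 16.5 CPM against 7.67 and 4.26 CPM (1.92 ± 0.45, edgeR adjusted p = 0.0167), and no muscle library reached down to a spleen library.

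Few heat shock factors, exchange factors and HSP90 cochaperones were called, at shares near or below those over all genes (16.2% in WT and 7.38% in Tg). Of 16 genes for heat shock factors and nucleotide exchange, WT muscle Tregs had 1 higher and 2 lower than WT spleen Tregs. Bag3, an HSP70 exchange factor itself induced by stress, was at 43.2 and 62.3 CPM in WT muscle Tregs, and the higher of the WT spleen libraries was at 18.1 CPM (1.94 ± 0.35, edgeR adjusted p = 0.00154). In Tg mice Bag3 was at 49.3 and 31.1 CPM against 31.4 and 18.4 CPM, with overlap (edgeR adjusted p = 0.136). Hsf1, the heat shock transcription factor, was lower at 73.9 and 75.0 CPM against 133 and 142 CPM (-0.70 ± 0.18, edgeR adjusted p = 0.0178), as was Bag5 (-0.76 ± 0.24, edgeR adjusted p = 0.0449). In Tg mice 1 of the 16 was called, Hsf2, at 44.1 and 49.6 CPM against 21.8 and 26.9 CPM (1.14 ± 0.30, edgeR adjusted p = 0.0286), while Hsf1 was at 90.7 and 75.3 CPM against 114 and 95.3 CPM (edgeR adjusted p = 0.742). Of 12 tested HSP90 cochaperones 1 was called per genotype: Unc45a, a myosin and HSP90 cochaperone, in WT (0.85 ± 0.17, edgeR adjusted p = 0.0041), and Stip1 (HOP), which links HSP70 to HSP90, in Tg (0.70 ± 0.15, edgeR adjusted p = 0.00882). The 8 genes of the CCT chaperonin, which folds actin and tubulin, had 0 calls in both (median log2 difference 0.10 in WT and 0.09 in Tg). Of 4 tested genes in the list of other heat-induced genes 3 rose in both genotypes, among them Ubb, a polyubiquitin gene, and Ppp1r15a (GADD34), a phosphatase subunit of the integrated stress response. Ppp1r15a was at 634 to 869 CPM in muscle Tregs and 40.4 to 95.1 CPM in spleen Tregs.

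Other transcripts moved with these differences. Of 11 immediate early genes, which rise within minutes of stimulation and during tissue dissociation, 9 were higher in muscle Tregs in each genotype. Over all genes 9.38% were higher in WT and 4.83% in Tg. Egr1 (89.9 to 116 CPM in muscle, 80.4 to 144 CPM in spleen Tregs) and Ier2 (46.9 to 344 and 78.0 to 157 CPM) were not called. The 11 genes summed to 8993 to 11658 CPM in muscle Tregs, 1678 to 2064 CPM in spleen Tregs and 390 to 632 CPM in whole muscle. Their part in the chaperone result was not tested, and how muscle and spleen were made into cell suspensions is not given in the sources used here. Foxp3 was also higher in muscle Tregs, at 1798 to 2125 CPM against 1109 to 1415 CPM. The 8 macrophage markers summed to 21.6 to 46.9 CPM in muscle Tregs and 83.8 to 198 CPM in spleen Tregs. The 6 B cell markers summed to 19.0 to 32.5 CPM and 47.2 to 106 CPM. Both sums were thus lower in muscle Tregs, but single markers differed. Of the macrophage markers Itgam was called higher in WT muscle Tregs, at 11.5 and 18.1 CPM against 3.52 and 4.66 CPM in WT spleen Tregs. In WT 2 others, Adgre1 and Apoe, were called lower, and in Tg 4 were lower and 0 higher. Their part in the chaperone values was not tested. Each muscle Treg library had counts for 5 to 7 of the 8 macrophage and 2 to 5 of the 6 B cell markers. Muscle fibre markers summed to at most 12.6 CPM in muscle Tregs and overlapped spleen Tregs (7.33 to 17.6 CPM).

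Both the inducible and the constitutive sum were higher in every muscle Treg library than in any spleen Treg library. The 8 stress-inducible genes summed to 909 and 1038 CPM (WT) and 1212 and 1262 CPM (Tg) in muscle Tregs, 477 to 742 CPM in the 6 spleen Treg libraries and 288 to 450 CPM in whole muscle. The 9 constitutive cytosolic genes summed to 4105 to 4403 CPM in muscle Tregs, 3000 to 3444 CPM in spleen Tregs and 2409 to 2864 CPM in whole muscle. Most of the constitutive sum in muscle Tregs was Hspa8 (1402 to 1674 CPM) and Hsp90ab1 (1602 to 1935 CPM). These were the only called genes of that list, so its higher sum does not stand for the other genes. The inducible to constitutive ratio of muscle Tregs was 0.221 and 0.245 (WT) and 0.275 and 0.294 (Tg), against 0.159 to 0.219 in spleen Tregs. With all genes of both lists it was lowest in whole muscle, at 0.119 to 0.157. Uninjured Tg spleen (0.211 and 0.219) was not below injured Tg spleen (0.176 and 0.212). Without Hspa1a and Hspa1b the ratio of WT muscle Tregs became 0.201 and 0.211 and overlapped that of Tg spleen Tregs, while Tg muscle Tregs stayed above at 0.234 and 0.248. WT muscle Tregs still lay above WT spleen Tregs, at 0.165 and 0.159. Without Hsp90aa1 and Hsp90ab1 the ratio of whole muscle was 0.230 to 0.301 and overlapped that of spleen Tregs, at 0.226 to 0.320. No test was made on these sums.

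**Figure D3:**
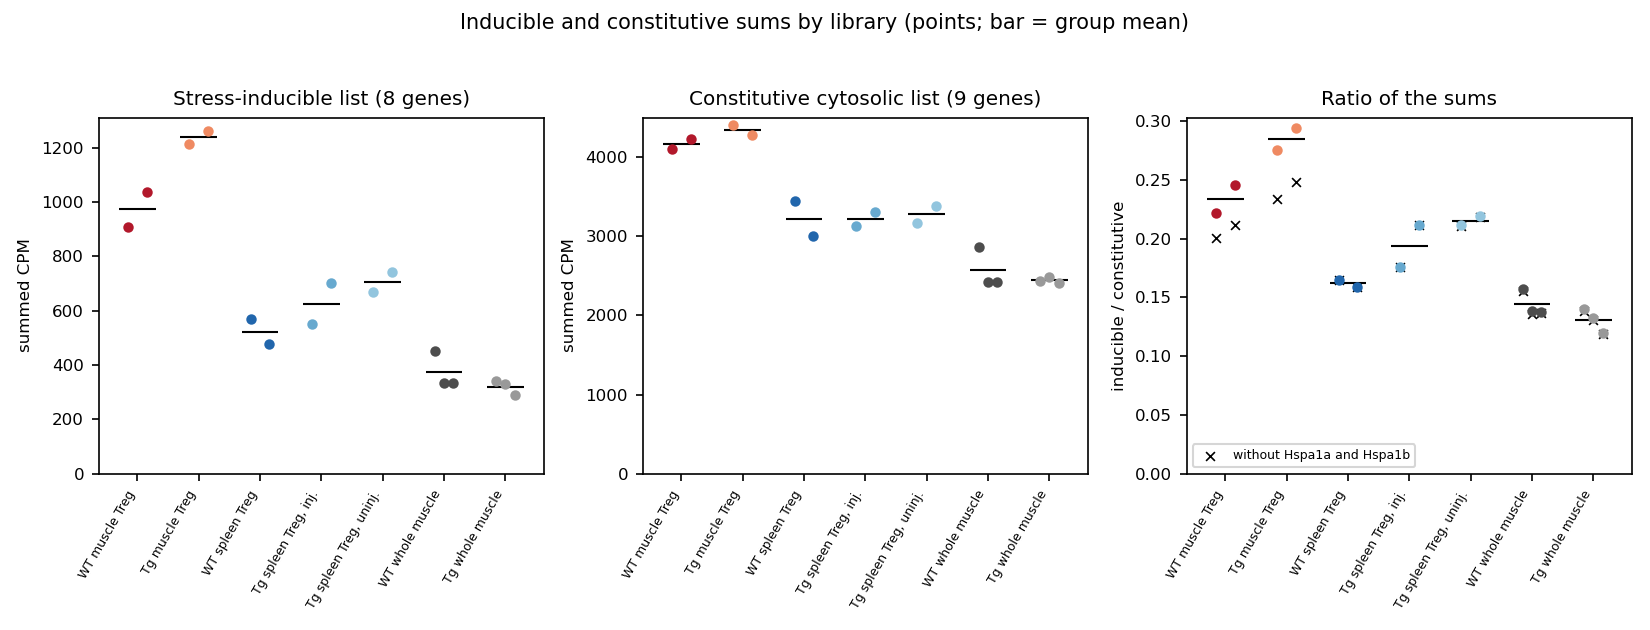
Summed CPM of the 8 stress-inducible genes (left), of the 9 constitutive cytosolic genes (middle) and the ratio of the 2 sums (right) in each library, with a bar for the group mean; crosses give the ratio without Hspa1a and Hspa1b. The ratio lies between 0.221 and 0.294 in the muscle Treg libraries and at or under 0.219 elsewhere. The crosses of WT muscle Tregs fall among the Tg spleen points and above those of WT spleen.

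Pairs of related genes were compared one by one, per kilobase of exon. Hspa1a plus Hspa1b came to 0.0885 and 0.133 of Hspa8 in muscle Tregs of WT and 0.166 and 0.172 in those of Tg mice, but to no more than 0.00265 in any spleen Treg library and 0.00367 to 0.0147 in whole muscle. Even in muscle Tregs the inducible HSP70 transcripts thus stayed below the constitutive one. Hsp90aa1 came to 0.0585 to 0.0745 of Hsp90ab1 in muscle Tregs, 0.0391 to 0.0535 in spleen Tregs and 0.0102 to 0.0142 in whole muscle, with no overlap among the 3. Hsph1 to Hspa4 was 0.324 to 0.913 in muscle Tregs, 0.249 to 0.414 in spleen Tregs and 0.429 to 1.05 in whole muscle, so the pooled ranges overlapped. Within WT it was 0.324 and 0.405 in muscle against 0.255 and 0.249 in spleen Tregs. In Tg mice it was 0.913 and 0.542 in muscle against 0.280 and 0.377 in injured spleen, also without overlap. Dnajb1 to Dnajb6 was 9.74 to 12.7 in muscle Tregs, 7.16 to 10.8 in spleen Tregs and 0.857 to 1.89 in whole muscle. Dnaja1 to Dnaja2 was 0.339 to 0.499, 0.209 to 0.375 and 0.0338 to 0.0425 in the same order. For the Dnajb1 and Dnaja1 pairs too the pooled ranges of muscle and spleen Tregs overlapped, while whole muscle lay below both. Within WT, and between Tg muscle and injured Tg spleen, the muscle libraries were the higher ones for both pairs. These ratios rest on annotated exon lengths and share the limit of reads that match several genes.

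Transgene and injury moved no member past the threshold. Between Tg and WT muscle Tregs 0 of 60 members were called (0.318% of all genes were), between injured Tg and WT spleen Tregs 0 (1.3% of all genes), between injured and uninjured Tg spleen Tregs 0 (0% of all genes), and 0 in the test of whether the tissue difference itself differed between Tg and WT (0.136% of all genes). DESeq2 also called 0 in each, and 3, 6, 3 and 1 members had an unadjusted edgeR p under 0.05. These comparisons share libraries with each other and with the tissue comparisons. In muscle Tregs the nearest were Hsp90aa1 (0.41 ± 0.16 higher in Tg, edgeR adjusted p = 0.483), Dnaja3 (-0.47 ± 0.20, edgeR adjusted p = 0.514) and Hsph1 (0.38 ± 0.17, edgeR adjusted p = 0.556). Hspa1a was higher in both Tg muscle libraries than in both WT ones, as 17.7% of all genes were (0.71 ± 0.36, edgeR adjusted p = 0.622). Without Tg muscle library 2, which leaves library 1 with Hspa4 at 130 CPM, Hspa4 was called lower in Tg. In spleen the nearest were Dnajc1 (72.5 and 60.4 CPM in WT, 95.3 and 110 CPM in injured Tg; 0.63 ± 0.18, edgeR adjusted p = 0.125) and Hspa13 (12.1 and 15.3 CPM against 24.2 and 31.9 CPM; 1.00 ± 0.30, edgeR adjusted p = 0.151). Injury left Hsp90aa1 at 71.9 and 68.6 CPM against 88.8 and 91.7 CPM in uninjured Tg spleen Tregs (-0.39 ± 0.17, edgeR adjusted p = 1). Hspa1a and Hspa1b were at or near 0 in spleen with and without injury.

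Whole muscle was marked by the small heat shock proteins. Hspb6 (HSP20), a partner of actin and contractile proteins, was at 1768, 1423 and 1698 CPM in WT and 1621, 1485 and 1286 CPM in Tg muscle. Hspb8 (HSP22), which works with Bag3 in clearing damaged proteins, was at 1088, 987 and 1126 CPM in WT and 1115, 1085 and 1001 CPM in Tg. Genotypes overlapped for both. Hspb7 (cvHSP), a small heat shock protein of heart and skeletal muscle, was at 325, 266 and 292 CPM in WT and 251, 243 and 197 CPM in Tg, and Hspb1 (HSP25) was at 192, 142 and 172 CPM in WT and 133, 141 and 116 CPM in Tg. The Tg libraries of both genes lay below all WT libraries, as for 3.86% of all genes, but neither passed (Hspb7 -0.39 ± 0.12, edgeR adjusted p = 0.99; Hspb1 -0.41 ± 0.14, edgeR adjusted p = 0.994). Hspb2 and Hspb3, which form a complex in muscle, were at 75.4 to 87.8 CPM and 32.8 to 41.1 CPM. Hspb9, a testis gene, had at most 0.164 CPM, below what 3 counts would give. In all 10 Treg libraries the 7 genes summed to 6.20 to 12.7 CPM, against 2729 to 3488 CPM in whole muscle. Most of the Treg sum was Hspb6 at 2.70 to 11.7 CPM, a gene with 8.79% of its exon length overlapped by other genes, Lin37 and Proser3 among them.

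**Figure D4:**
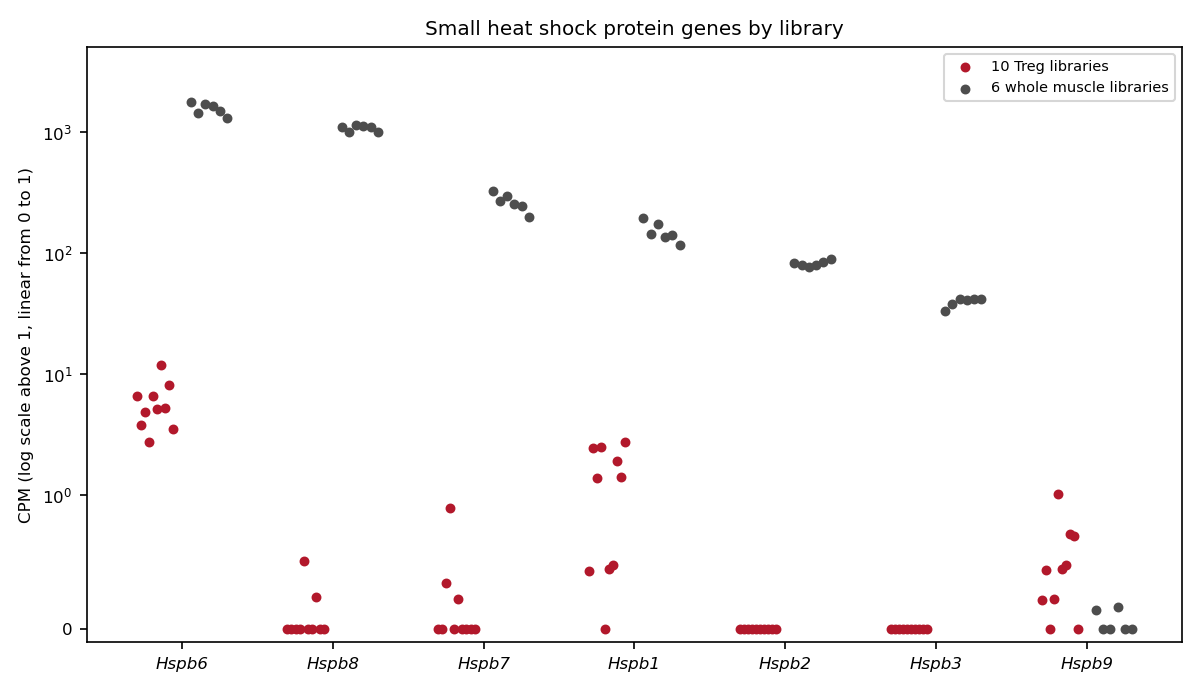
CPM of the 7 small heat shock genes in each of the 10 Treg libraries and 6 whole muscle libraries, on an axis that is linear from 0 to 1 and logarithmic above. Every whole muscle point lies above every Treg point for 6 genes, and Hspb9 is near 0 in both.

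Between Tg and WT whole muscle 0 of 62 tested members were called by edgeR (0.0323% of all genes were) or by DESeq2, and 3 had an unadjusted edgeR p under 0.05: Hspb7, Hspb1 and Dnajb2. The stress-inducible genes were uneven in the tissue. Hspa1a was at 1.56 to 6.05 CPM, Hsp90aa1 at 16.5 to 23.0 CPM and Dnajb1 at 9.69 to 19.2 CPM, with the genotypes overlapping for each. Hspb1, given above, and Dnajb4, at 37.9 to 53.7 CPM, were instead higher than in any Treg library. Hsph1 was at 56.7 to 128 CPM and overlapped the Tregs. Of the 9 mitochondrial members 6 were higher in every whole muscle library than in any Treg library, where 13.8% of all genes were. Among the 6 were Hspa9 at 368 to 466 CPM and Dnaja3 at 148 to 171 CPM, without a genotype call. Hspd1 (88.6 to 127 CPM) and Hspe1 (33.2 to 47.0 CPM) overlapped the Tregs, and Dnajc11 had a lower median in tissue (58.7 CPM) than in muscle Tregs (69.8 CPM) or spleen Tregs (82.3 CPM). In tissue, fewer cells of a type and less RNA per cell cannot be told apart. The macrophage markers summed to 524 to 1480 CPM in WT and 1441 to 1885 CPM in Tg muscle and the muscle fibre markers to 163330 to 171460 CPM and 159960 to 174890 CPM; their part in the values of Hspb1 and Hspb7 was not tested.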

How the data were processed

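RNA was measured in 10 Treg and 6 whole muscle libraries. The deposited file holds whole-number read counts per gene symbol; alignment with STAR 2.5.4 to mm10 and counting with featureCounts by the authors are named in the submitters' processing notes. Libraries were made from oligo(dT)-primed, amplified cDNA by transposon fragmentation (per the labels' protocols), which marks no strand, so reads of overlapping genes cannot be told apart. How reads matching several genes were treated is not given in the sources used here.

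Counts were tested with edgeR 4.0.16 (R 4.3.3): filterByExpr by group (2.38 CPM in Tregs), TMM, estimateDisp, robust glmQLFit, glmQLFTest and Benjamini-Hochberg adjustment over all tested genes, called at an adjusted p under 0.05. The 10 Treg libraries shared 1 fit of 5 groups (13188 genes, 60 members, 5 residual degrees of freedom) and the 6 whole muscle libraries had their own (12377 genes, 62 members, 4 residual degrees of freedom). CPM values use the library total, whereas log2 differences use TMM, whose factors were 0.896 to 0.961 in muscle Tregs and 1.02 to 1.07 in spleen Tregs; a CPM ratio is therefore smaller than the fitted difference for a gene higher in muscle. The SE was approximated from the test statistic. A count of 0 was read as up to 3 counts. Exon lengths, shared 25-base windows and overlaps came from GENCODE M21 (GRCm38), where all 72 members were found, and upstream windows from RefSeq. No columns of other samples were present. A chi-square of counts within groups gave 5.47 to 28.9 per degree of freedom, so no library was taken as a duplicate. The fit was tested on simulated data.

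Members, role lists and other gene lists were chosen with earlier results of these data known. Named were all stress-inducible genes, 12 other chaperones always, called members, called genes of the 4 lists of chaperone partners, up to 2 uncalled members per list, every small heat shock gene in whole muscle, and Foxp3. Dnajc9, Dnajc5, Dnajb2, Dnaja4, Dnajb5, Hspa12a, Egr1 and Ier2, and the genes in the closing section, were named after their values were seen. A called gene of these lists is not reported here, though counts include it. Alternatives were RLE scaling, no filter, a replicate block, DESeq2 1.42.0, the compared groups only, each library left out, ratios without paired genes and, chosen after seeing the data, library total scaling.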

Additional observations from a re-analysis of the deposited data

How the results depend on the processing

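All 27 calls in the 2 tissue comparisons held, with their sign, under RLE scaling, without the filter on low counts, in DESeq2 and with the replicate number as a block. Same-numbered libraries deviated together by correlations of only -0.042 to 0.0936, so no shared deviation by number was seen. Whether same-numbered libraries came from the same mice is not stated, and low correlations cannot decide it. The replicate block left 15 calls in WT and 12 in Tg and 0 elsewhere. Fits on the compared groups only gave 11 and 11 calls. With library total scaling, an alternative added after seeing the data, 15 and 13 members were called, of which 13 and 11 were among those reported; Dnaja3 and Dnajb2 were gained in WT, and Dnaja3 and Dnajc7 in Tg. Leaving out 1 library at a time gave 10 to 16 calls in WT and 7 to 12 in Tg; the lowest values came without WT spleen replicate 2, and without Tg muscle replicate 1 or injured Tg spleen replicate 1. The same gave 0 to 1 calls between Tg and WT muscle Tregs and 0 in the remaining comparisons. No called gene changed sign under any alternative run; uncalled members that did so with library total scaling numbered 5 in WT and 7 in Tg, Hspa4, Hspa9 and Hspe1 among the latter. Without Hsp90aa1 and Hsp90ab1 the mean inducible to constitutive ratio was 0.336 and 0.42 in WT and Tg muscle Tregs and 0.233 to 0.313 in spleen Tregs. In WT and Tg whole muscle it was then 0.2755 and 0.247, no longer below all spleen Tregs. With 2 libraries per Treg group and library floors of 0.329 to 1.51 CPM, differences in members of a few CPM were not detectable.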

Other observations

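Dnajb13, a J-domain gene best known from sperm flagella, had 37.8 to 69.6 CPM in every Treg library and 0 to 2.65 CPM in whole muscle. Its exons overlap Ucp2 on the opposite strand over 11.2% of their length, and the counting is not stated to use strand, so reads of the 2 genes cannot be told apart. Injured Tg spleen Tregs had 38.3 and 42.1 CPM against 64.2 and 69.6 CPM in uninjured ones (-0.76 ± 0.22, edgeR adjusted p = 1). Cryab, the small heat shock gene next to Hspb2 whose name falls outside the rule, had 0 counts in all 10 Treg libraries and 492 to 757 CPM in whole muscle; 30.2% of Hspb2 exon sequence overlaps it.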
